A study of Mus musculus with 16 samples.

Results

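Broad domains of H3K27ac, histone H3 acetylated at lysine 27, were examined in 3T3-L1 cells, mouse fibroblasts of an established line that can turn into adipocytes. The domains described here were narrow or absent before differentiation and broad 48 h after it began. They were chosen as islands of 10000 bp or more in empty-vector library A at 48 h that overlapped an island of 10000 bp or more in library B at 48 h and none of that length in either empty-vector library at 0 h. Of 31292 islands in that 48 h list, 1493 reached 10000 bp, 954 of these had a counterpart in library B, and 498 of these met the full rule. An island is a run of enriched windows joined across short gaps. The 498 domains are called newly broad domains below, and the 299 islands that were broad in both 48 h lists and in both 0 h lists are called stably broad.

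The empty-vector cells carried a retrovirus without insert, and the SETD5 cells were a stable retroviral line that expressed SETD5 with a C-terminal V5 tag. Both were differentiated with insulin, dexamethasone and isobutylmethylxanthine (MDI), so both received a glucocorticoid and an agent that raises cyclic AMP. H3K27ac was measured in both lines at 0 h and 48 h with 2 libraries each, A and B, and SETD5-V5 at 0 h and 6 h with 2 libraries each. H3K4me1 at 0 h and 48 h and endogenous SETD5 at 0 h and 6 h had 1 library each, without a replicate check. The labels name the SETD5-V5 virus for H3K4me1, whereas the study shows untransduced cells, and they name no virus for library A of SETD5-V5. The study describes A and B as 2 biological replicates, and the labels do not say whether they were separate cultures.

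H3K27ac marks active promoters and enhancers, and long stretches of it tend to lie at genes that define a cell type. Fat cell differentiation runs through an early wave set off by the hormone mixture, in which C/EBPβ and the glucocorticoid receptor act, and a later one led by PPARγ and C/EBPα. SETD5 is a SET-domain protein that works with the corepressor NCoR and the histone deacetylase HDAC3, an enzyme that removes acetyl groups from histones. The fibroblast character of the cells was visible in the lists, since the start sites of 10 of 10 fibroblast markers lay in an H3K27ac island in each of the 8 libraries. Of 10 adipocyte markers, 4 were marked in every 0 h library, 10 and 9 in the empty-vector libraries at 48 h, and 7 in each SETD5 library at 48 h. Of 10 markers each of muscle, cartilage and bone, and macrophages, at most 1, 3 and 3 were marked in any library, and of 10 endothelial and 10 epithelial markers none.

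The sequences below show what was gained. Each is a 200 bp window, free of annotated exons, that lay in both empty-vector lists at 48 h and in neither at 0 h, on the plus strand of mm9 (NCBIM37). The first pair lay in neither SETD5 list at 48 h. Each was chosen within the domain as the first window with the most matches on either strand. Matches to the C/EBP motif TTGCNNAA and to the PPAR-RXR direct repeat were counted together. Both windows held a C/EBP match, shown in capitals, and no direct repeat. The Cebpa window (chr7:35918001-35918200) lay 13.8 kb downstream of the start site, outside the gene, and the Acsl1 window (chr8:47560601-47560800) in an intron. Of such windows, 3 of 61 at Cebpa and 3 of 60 at Acsl1 held a match to either motif, so the windows are examples only. Srebf1 and Cidec were searched in the same way and gave no window with a match.
Cebpa: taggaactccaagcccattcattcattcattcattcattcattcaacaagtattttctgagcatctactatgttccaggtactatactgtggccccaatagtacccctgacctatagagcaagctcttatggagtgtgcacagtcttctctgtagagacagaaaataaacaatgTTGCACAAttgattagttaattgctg
Acsl1: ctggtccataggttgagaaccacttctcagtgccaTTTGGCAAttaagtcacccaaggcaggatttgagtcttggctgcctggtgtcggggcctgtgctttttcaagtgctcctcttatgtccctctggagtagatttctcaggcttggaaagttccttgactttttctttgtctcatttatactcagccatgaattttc
The next pair lay in both SETD5 lists at 48 h and was chosen in the same way for the core of the glucocorticoid receptor motif, ACANNNTGT, in capitals. The Fkbp5 window (chr17:28545401-28545600) is intronic, and the Errfi1 window (chr4:150217201-150217400) lies 10.7 kb upstream of the start site. Of such windows, 16 of 206 at Fkbp5 and 12 of 90 at Errfi1 held a match. At Nr4a1, whose window is not shown, 3 of 46 did, and Pde4d gave no window with a match.
Fkbp5: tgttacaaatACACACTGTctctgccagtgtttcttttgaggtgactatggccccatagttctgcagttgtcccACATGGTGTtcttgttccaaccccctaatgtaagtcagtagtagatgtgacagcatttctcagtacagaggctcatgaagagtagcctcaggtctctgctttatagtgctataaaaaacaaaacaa
Errfi1: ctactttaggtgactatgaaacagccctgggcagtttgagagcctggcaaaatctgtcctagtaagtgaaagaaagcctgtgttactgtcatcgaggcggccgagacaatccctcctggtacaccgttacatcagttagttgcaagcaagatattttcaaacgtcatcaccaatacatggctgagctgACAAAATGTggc
The last pair was chosen for a match to the PPAR-RXR direct repeat, in capitals, in 2 of the longest domains. The Zbtb16 window (chr9:48557601-48557800) is intronic, and the Adipor2 window (chr6:119371001-119371200) lies outside any protein-coding gene, 3.60 kb from the nearest start site of Adipor2. Both lay in both SETD5 lists.
Zbtb16: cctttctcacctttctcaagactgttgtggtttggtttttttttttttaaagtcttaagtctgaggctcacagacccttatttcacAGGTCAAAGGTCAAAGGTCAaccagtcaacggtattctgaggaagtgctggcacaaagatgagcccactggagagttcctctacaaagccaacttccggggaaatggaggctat
Adipor2: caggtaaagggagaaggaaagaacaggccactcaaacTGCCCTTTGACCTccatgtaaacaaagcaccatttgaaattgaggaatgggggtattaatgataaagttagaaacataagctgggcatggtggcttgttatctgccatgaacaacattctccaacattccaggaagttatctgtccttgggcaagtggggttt

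The newly broad domains were built on existing marks. Before differentiation, 218 of them held 2 or more shorter islands in both empty-vector lists, 153 held 1 island in both, and 42 held none in either. The domains measured 13800 bp at the median in the list that defined them, and the longest overlapping island measured 5600 bp in library A and 4600 bp in library B at 0 h. They spanned 7.91 Mb in all, of which 48.7% was covered in neither empty-vector list at 0 h. These values were used by the rule and are a description. At the limit itself, the shorter of the overlapping 48 h islands measured exactly 10000 bp in 27 domains, and 23 regions missed the rule with a shorter island of 9800 bp. Members next to each other can share 1 island of library B, as at Zbtb16 and Fgfr1.

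In SETD5 cells the same places gained acetylation at 48 h but often remained shorter and in pieces. An island of 10000 bp or more overlapped 42.0% of the newly broad domains in SETD5 library A and 56.2% in library B, so that 50.9% ± 10.1 (SD, n = 2) had none. Together, 195 domains (39.2%) were broad in neither SETD5 list, 117 (23.5%) in 1 and 186 (37.3%) in both. Over all 954 islands that were broad in both empty-vector 48 h lists, 25.8% were broad in neither SETD5 list and 55.1% in both. Among the stably broad islands, 22 (7.36%) were broad in neither and 238 (79.6%) in both. Between newly and stably broad islands, the share without a broad SETD5 island differed by 42.6 percentage points in library A and 31.4 in library B, and among islands of 10000 to 15000 bp by 34.0 and 29.3. Since the empty-vector lists chose the domains, some shortening in any list that did not choose them is built into the comparison.

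**Figure D1:**
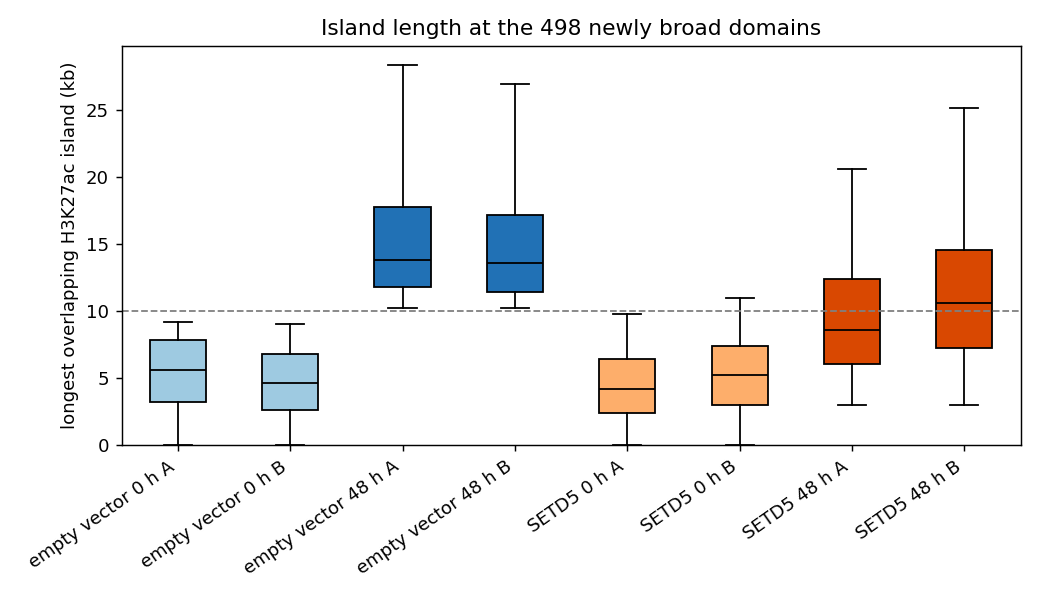
Length of the longest H3K27ac island (kb) that overlapped each of the 498 newly broad domains in the 8 libraries. Boxes give the median and quartiles, whiskers the 5th and 95th percentiles, and the dashed line the limit of the rule. At 48 h the medians were 13.8 and 13.6 kb in empty-vector cells and 8.6 and 10.6 kb in SETD5 cells.

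Few domains were without any acetylation in SETD5 cells, as 496 of 498 held an island in each SETD5 48 h library. Over all islands broad in both empty-vector 48 h lists, 952 of 954 did. In library A, 230 domains held 2 or more islands that were all under 10000 bp, 57 held 1 short island and 2 held none. In library B these numbers were 149, 67 and 2. Counted at any length, 297 and 230 domains were in 2 or more pieces in SETD5 libraries A and B, and 128 in empty-vector library B. Over all 954 islands broad in both empty-vector 48 h lists these numbers were 490, 400 and 252. Being in pieces was thus not particular to the newly broad domains. In 318 domains (63.9%) both SETD5 islands were shorter than both empty-vector islands, in 32 (6.43%) both were longer, and in 148 the ranges overlapped. The rule set a minimum length in the empty-vector lists only, so the choice of domains raises the first of these numbers. The same count was not made over all islands broad in both empty-vector lists. Of the bases that were covered at 0 h in empty-vector cells, 89.8% and 92.6% were covered in the SETD5 48 h libraries A and B. Of the newly covered bases, 58.1% and 64.1% were. The corresponding values in empty-vector library B at 48 h were 97.9% and 86.5%.

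To read the domains in a library that had not chosen them, the rule was applied to letter A alone and to letter B alone. Of the 973 domains chosen on letter A, 54.2% were broad in the unused empty-vector library B, against 28.3% and 39.6% in SETD5 libraries A and B. Of the 821 domains chosen on letter B, 76.7% were broad in empty-vector library A, against 42.4% and 53.3%. In both readings the unused empty-vector library lay above both SETD5 libraries, and the share in it differed between the letters by more than the smaller of these gaps. The same reading of domains chosen in SETD5 cells gave other orders. Of 551 chosen on SETD5 letter A, 81.1% were broad in SETD5 library B, against 67.3% and 65.3% in the empty-vector libraries. Of 718 chosen on SETD5 letter B, 53.2% were broad in SETD5 library A, against 59.7% and 55.7%, both above it.

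**Figure D2:**
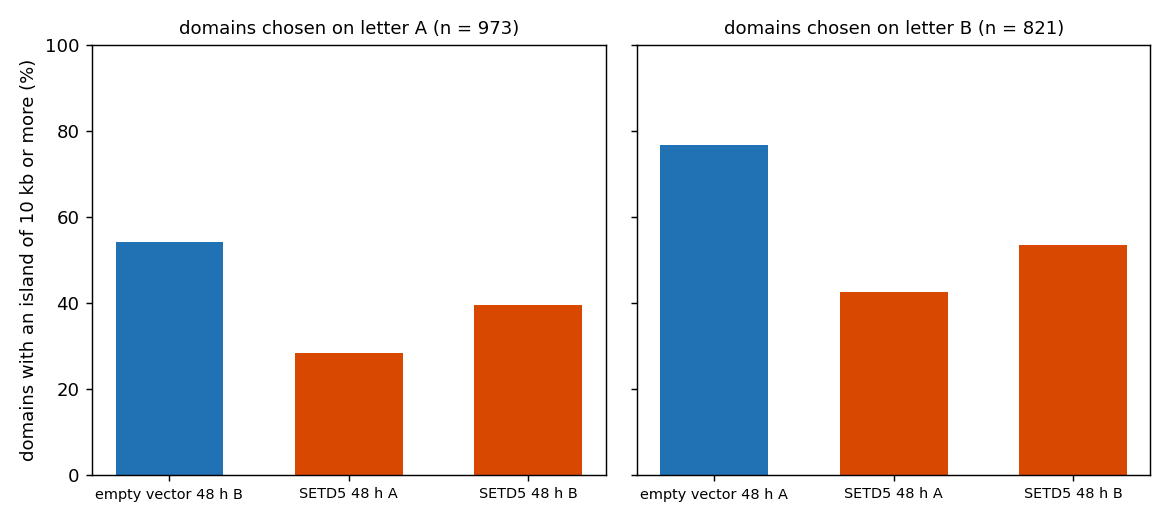
Share of domains (%) with an island of 10 kb or more at 48 h, for domains chosen on 1 replicate letter, in the empty-vector library that was not used (blue) and in both SETD5 libraries (orange). Each bar is 1 library, and the blue bars stand at 54.2% and 76.7%.

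Applied to the SETD5 lists, the full rule gave 357 newly broad domains, against 498 in empty-vector cells. Of the 498, 152 (30.5%) overlapped one of the 357, and of the 357, 154 (43.1%) overlapped one of the 498. The number of islands of 10000 bp or more at 48 h was 1493 and 1188 in empty-vector libraries A and B and 891 and 1178 in SETD5 libraries A and B, so the libraries differed by -602 islands within letter A and by -10 within letter B. Both SETD5 numbers were below both empty-vector numbers. The mean difference was -306 (exact permutation test over libraries, two-sided p = 0.333, the smallest that 2 against 2 libraries allow).

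Within SETD5 cells, whose lists the rule did not use, the newly broad domains were covered over 45.9% ± 4.09 (SD, n = 2) of their length at 0 h and over 77.5% ± 3.06 at 48 h. The difference of 31.7 percentage points exceeded the spread between libraries (exact permutation test, two-sided p = 0.333, which is the smallest possible). Cover was higher at 48 h than at 0 h in both letters in 429 of 498 domains. The stably broad islands were covered in SETD5 cells over 83.9% at 0 h and 90.6% at 48 h. Islands with higher cover in both letters were not counted among them. At 0 h, cover in SETD5 and empty-vector cells differed by 0.478 points, less than the spread between libraries, which is a description because the rule used the empty-vector 0 h lists. At 48 h the difference between SETD5 and empty-vector cells was -18.7 points, from 96.3% ± 5.25 in empty-vector cells. The rule sets empty-vector library A to its full length there. The direction is thus favoured by the choice of domains, and no p-value is given. In the stably broad islands the corresponding difference was -6.64 points.

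Among the 12 longest domains, ranked by the mean length of the islands of empty-vector libraries A and B at 48 h, 7 remained broad in both SETD5 lists. The longest of all (chr2:167641001-167699200) was intergenic, 58.6 kb from the start site of Ptpn1, a tyrosine phosphatase that acts on the insulin receptor. Its islands at 48 h measured 58200 and 57400 bp in empty-vector cells and 24400 and 26400 bp in SETD5 cells, in 4 pieces in each SETD5 list and 2 in empty-vector library B. It belonged to a group of 4 domains over 177 kb between Cebpb, which encodes the early adipogenic factor C/EBPβ, and Ptpn1, of which 3 remained broad in both SETD5 lists. Sept9, a septin gene, held islands of 49600 and 47800 bp in empty-vector cells and 19400 and 31000 bp in SETD5 cells. Nfia, a nuclear factor of adipocyte progenitors, held 38600 and 37800 bp against 27400 and 42000 bp, ranges that overlapped. Zbtb16, a glucocorticoid-induced zinc finger gene, carried 3 neighbouring domains in its body, of which 1 was broad in both SETD5 lists, 1 in 1 and 1 in neither. The first measured 35200 bp with a 50800 bp island in library B, and 26000 and 30400 bp in SETD5 cells. The second measured 25200 bp, shared the island of library B, and held 7400 and 13000 bp in SETD5 cells.

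Other long domains were shorter in SETD5 cells. Adipor2, which encodes an adiponectin receptor, held 51400 and 20800 bp in empty-vector cells and 7400 and 6400 bp in SETD5 cells, in 6 and 5 pieces, where empty-vector library B held 4 pieces. Srebf1, which encodes the lipid-synthesis factor SREBP1, held 37000 and 32200 bp against 7200 and 6600 bp. Trp63, which encodes the transcription factor p63, held 47000 and 21600 bp against 6800 and 8000 bp. The lowest cover among domains broad in neither SETD5 list was in a domain in the body of Smoc1, which encodes a secreted calcium-binding protein. That domain measured 15600 and 14200 bp in empty-vector cells and held no island in any of the 4 SETD5 H3K27ac lists. Next came domains at Fabp12, Ncapg2 and Mtus1, which held islands of at most 2000 bp in SETD5 cells.

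Genes of adipogenesis and lipid storage were present among the domains. Of 101 annotated genes in 6 lists of adipogenic factors and lipid or secreted adipocyte proteins, 18 (17.8%) had a start site in a newly broad domain, against 1.02% of all 22380 protein-coding genes. The lists were chosen for this tissue with results of these data known. The counts that follow stand beside 37.3% of all 498 domains that were broad in both SETD5 lists and 39.2% in neither. Of the 18 domains, 9 were broad in neither SETD5 list, 3 in 1 and 6 in both, with a median cover of 64.4% against 83.3% over all 498 domains. Of 17 glucocorticoid-responsive genes, 6 had a start site in 7 domains, of which 5 were broad in both SETD5 lists, 1 in 1 and 1 in neither, with a median cover of 88.7%. Of 18 cyclic AMP-responsive genes, 4 had one, of which 3 were broad in both SETD5 lists and 1 in 1, with a median cover of 89.8%. Klf9 belongs to both the adipogenic and the glucocorticoid list. Of 26 preadipocyte genes 1 (Pdgfra) and of 28 matrix genes 1 (Col5a1) had a start site in a newly broad domain, and both domains were broad in both SETD5 lists. None of the 50 markers of muscle, cartilage and bone, macrophages, endothelium and epithelium had one.

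Cebpa, which encodes C/EBPα, was among the most shortened. Its longest island measured 6800 and 8400 bp at 0 h and 33000 and 31000 bp at 48 h in empty-vector libraries A and B. In SETD5 cells it measured 5000 and 5600 bp at 0 h and 4800 and 4200 bp at 48 h, in 3 pieces in each list. The 48 h values of the groups did not overlap, and the SETD5 values at 48 h were below those at 0 h in both letters. The domain (chr7:35901601-35934600) reached from -2.71 to 30.3 kb of the start site. Pparg, which encodes the master regulator of fat cells, held 7600 and 5400 bp at 0 h and 27000 and 25400 bp at 48 h in empty-vector cells. In SETD5 cells it held 3400 and 8000 bp at 0 h and 9000 and 12400 bp at 48 h. Klf15, a later adipogenic factor, had no island in empty-vector cells at 0 h, 12200 and 10600 bp at 48 h, and 4200 and 2600 bp in SETD5 cells at 48 h. Of the 7 domains of the adipogenic factor list, 3 were broad in neither SETD5 list, 1 in 1 and 3 in both. The last 3 were at Klf9, Nr3c1 and Bcl6. At 48 h Klf9 held 13000 and 14000 bp in empty-vector cells against 15600 and 13600 bp in SETD5 cells. Nr3c1 held 13600 and 13000 bp against 13000 and 12800 bp, and Bcl6 12600 and 12800 bp against 11400 and 12600 bp.

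**Figure D3:**
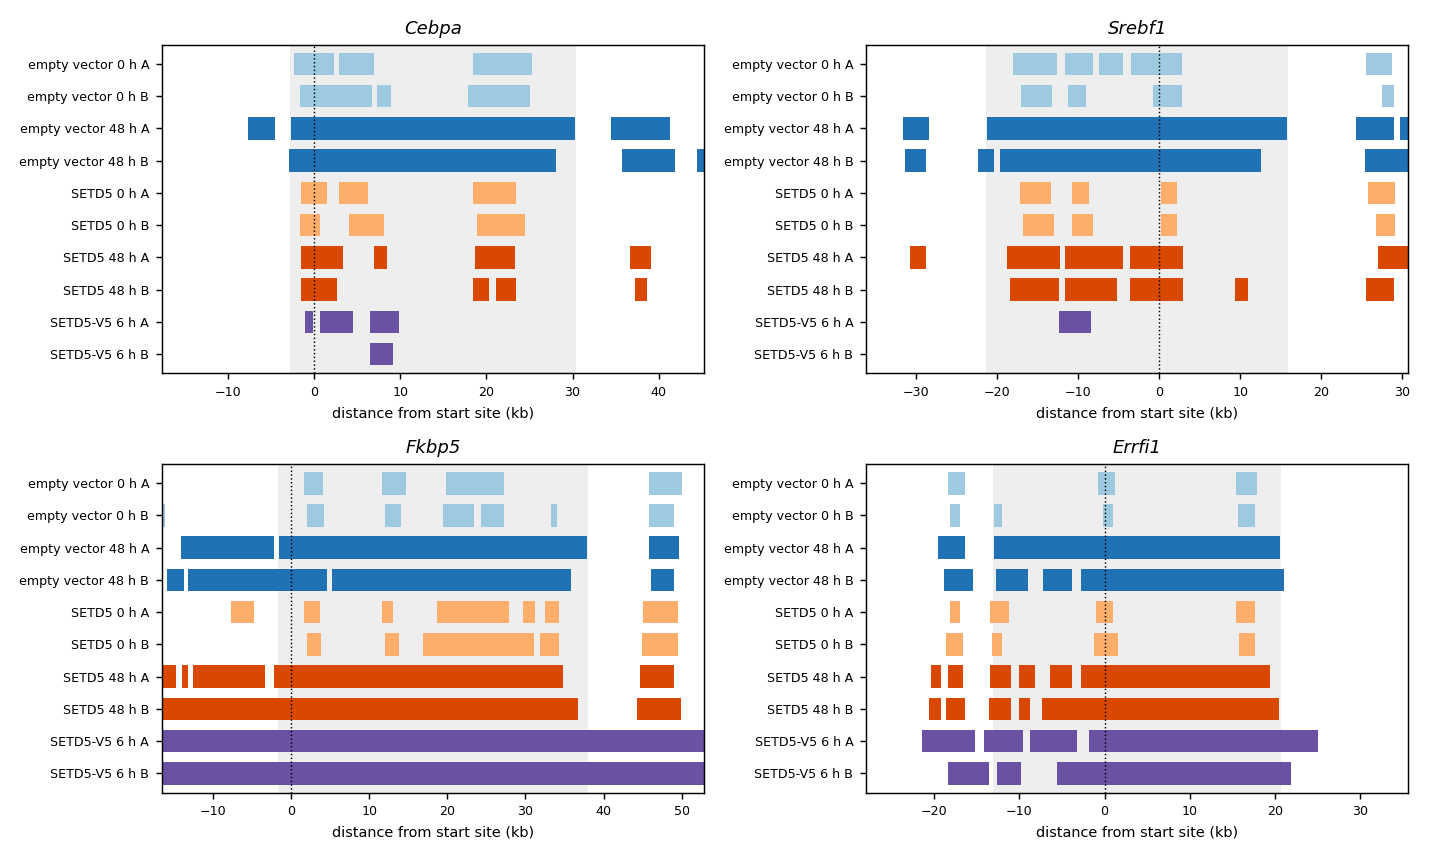
H3K27ac islands of the 8 libraries and SETD5-V5 islands at 6 h (bars) against the distance from the start site (kb, dotted line, in the direction of transcription), with the newly broad domain in grey. Cebpa and Srebf1 are in pieces in SETD5 cells at 48 h, and Fkbp5 and Errfi1 hold islands of at least 22200 bp there.

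Lipid genes were mixed. Acsl1, which activates fatty acids, held islands of 21800 and 12000 bp in empty-vector cells at 48 h and 3000 and 3600 bp in SETD5 cells. Plin4, which coats lipid droplets, held 16200 and 15600 bp against 5200 bp in both SETD5 libraries, and Cidec, which fuses droplets, 15000 and 14200 bp against 5600 and 5400 bp. Lpl, the lipoprotein lipase gene, held 17200 and 13400 bp against 6200 and 8400 bp. At Lipe, which encodes hormone-sensitive lipase, the islands were 21000 and 20000 bp against 13000 and 14400 bp, and thus still above the limit. At Scd2, a desaturase gene, they were 28400 and 14400 bp against 14200 and 25600 bp and overlapped between the groups. Agt, the angiotensinogen gene, did not separate either, with 10800 and 12600 bp against 11600 and 11400 bp. Among insulin-pathway domains, that of Cav1 was broad in neither SETD5 list and that of Irs2 in 1.

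Most domains of the hormone-responsive genes were still broad in SETD5 cells. Fkbp5, a cochaperone of the glucocorticoid receptor, held 3 domains with start sites, and the longest (chr17:28540801-28580200) measured 39400 bp with a 30600 bp island in library B, and 37000 and 63400 bp in SETD5 cells. Errfi1, a feedback inhibitor of the EGF receptor, held 33600 and 23800 bp against 22200 and 27800 bp. Dusp1, a MAP kinase phosphatase, held 13600 and 13400 bp against 14600 and 13600 bp. Pde4d, a cyclic AMP phosphodiesterase, held 11800 and 14600 bp against 13400 and 14800 bp, and Nr4a1, an immediate-early nuclear receptor, 30600 and 23000 bp against 14200 and 30400 bp. The domain of the metallothionein genes Mt1 and Mt2 was broad in neither SETD5 list, with 15400 and 14400 bp against 7200 and 6800 bp. Another Fkbp5 domain (8600 and 16800 bp in SETD5 cells) and that of Pde4b (10000 and 9400 bp) were broad in 1.

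**Figure D4:**
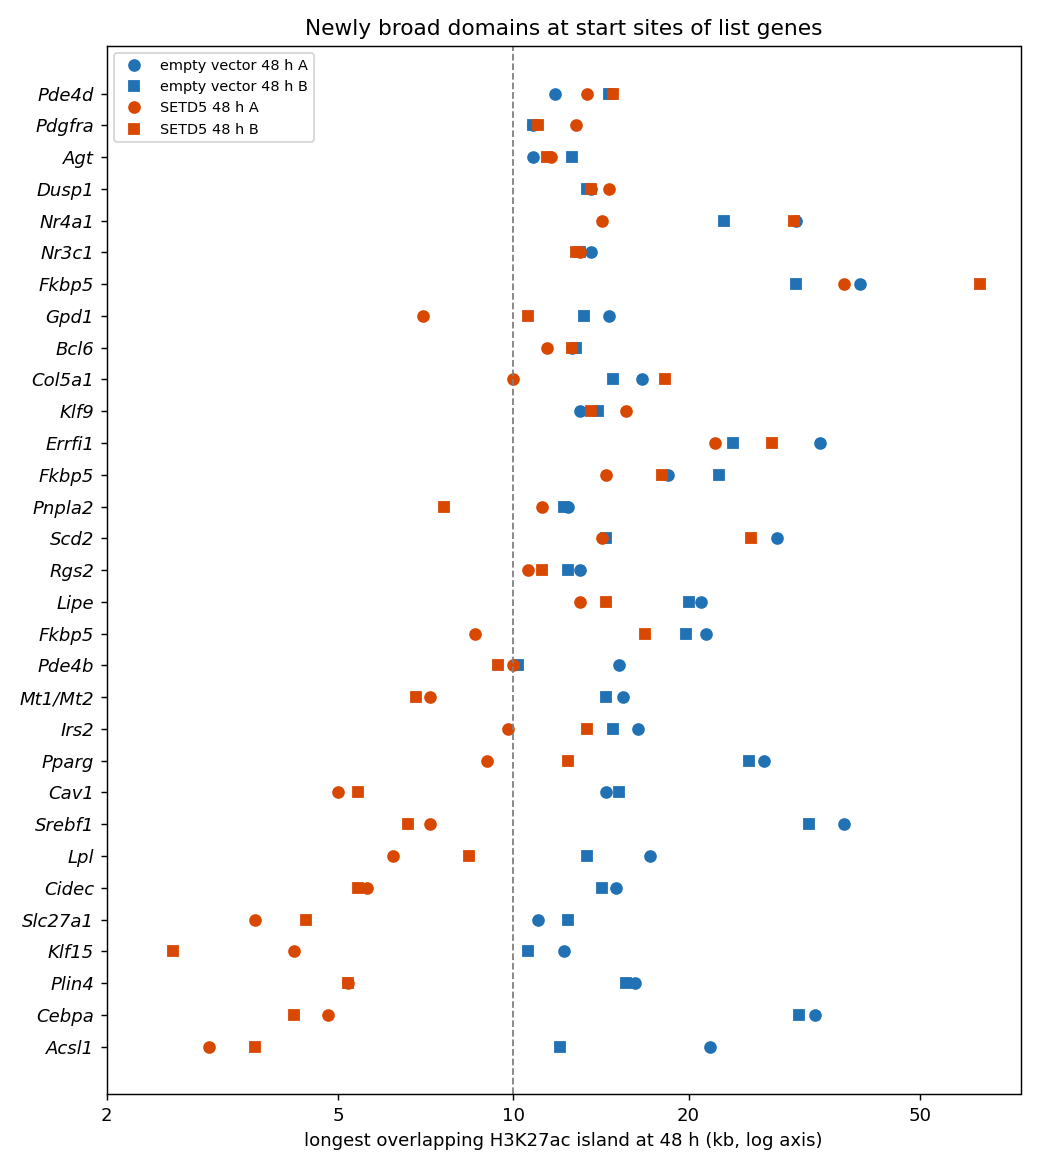
Longest H3K27ac island at 48 h (kb, log axis) at newly broad domains with a start site of a list gene, in empty-vector (blue) and SETD5 (orange) libraries A (circles) and B (squares), ordered by mean SETD5 cover. The dashed line is the limit of the rule. Acsl1 and Cebpa lie lowest, with SETD5 islands of at most 4800 bp.

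By position, 191 domains held the start site of a protein-coding gene, 166 lay in a gene body, 74 lay within 50 kb of a start site and 67 lay farther away. Of these, 33.0%, 41.6%, 44.6% and 44.8% were broad in neither SETD5 list. In all, 190 of 498 domains lay within 100 kb of another, and 29 groups held 3 or more. At Smoc1, Enpp2, Abcg1 and Myc all 3 domains of the group were broad in neither SETD5 list, and at Nfia, Trps1, Zcchc24 and Dusp1 all 3 were broad in both. Enpp2 encodes the secreted enzyme autotaxin, and Abcg1 a cholesterol transporter. A group of 5 at the Ear genes on chromosome 14 was broad in both SETD5 lists throughout. This is a family of near-identical ribonuclease genes, so reads could be assigned to the wrong copy there.

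SETD5-V5 was present at most of the domains 6 h after induction. An island of both replicates overlapped 433 domains (86.9%) at 6 h and 145 (29.1%) at 0 h. Among all 954 islands broad in both empty-vector 48 h lists, 91.4% had one at 6 h and 50.1% at 0 h. The covered share of the domains was 24.1% ± 15.5 (SD, n = 2) at 0 h and 66.7% ± 7.97 at 6 h (exact permutation test, two-sided p = 0.333, the smallest possible). In the stably broad islands it was 55.1% at 0 h and 79.6% at 6 h. The lists differ in size between replicates and times, with 16054 and 6666 islands at 0 h and 35573 and 27220 at 6 h, and with the lists of this mark held to equal numbers of highest-scoring islands the difference between times was 32.5 percentage points in place of 42.6.

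The domains that were broad in neither SETD5 list had the lowest SETD5-V5 values of the 3 classes. Islands of both replicates at 6 h overlapped 144 of the 195 domains broad in neither SETD5 list (73.8%), 109 of the 117 broad in 1 (93.2%) and 180 of the 186 broad in both (96.8%). The mean covered share at 6 h was 59.1% and 47.6% in the first of these classes and 80.6% and 70.7% in the last. Cebpa was covered over 24.8% and 7.88% and Srebf1 over 10.8% and 0%, whereas the longest Fkbp5 domain was covered over 100% in both. Cebpa still held a SETD5-V5 island from 6.49 kb of the start site in both replicates. Other domains went against the class values. Those of Cav1 and of Mt1 and Mt2, broad in neither SETD5 list, were covered over 100% in both replicates. The Lpl domain, also broad in neither, was covered over 84.9% and 91.9%. Lipe and Agt, broad in both, were covered over 41.9% and 0% and over 48.1% and 25.9%. The first class was also less acetylated at 0 h, with a mean empty-vector cover of 41.6% and 34.6% against 53.1% and 45.9%, and its domains were shorter, with a median of 13000 bp against 14600 bp. Endogenous SETD5 at 6 h overlapped 24.9% of all 498 domains, against 3.82% at 0 h, with 1 library each and lists of 3293 and 2132 islands. Over all 954 islands broad in both empty-vector 48 h lists these shares were higher, at 32.7% and 11.5%.

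**Figure D5:**
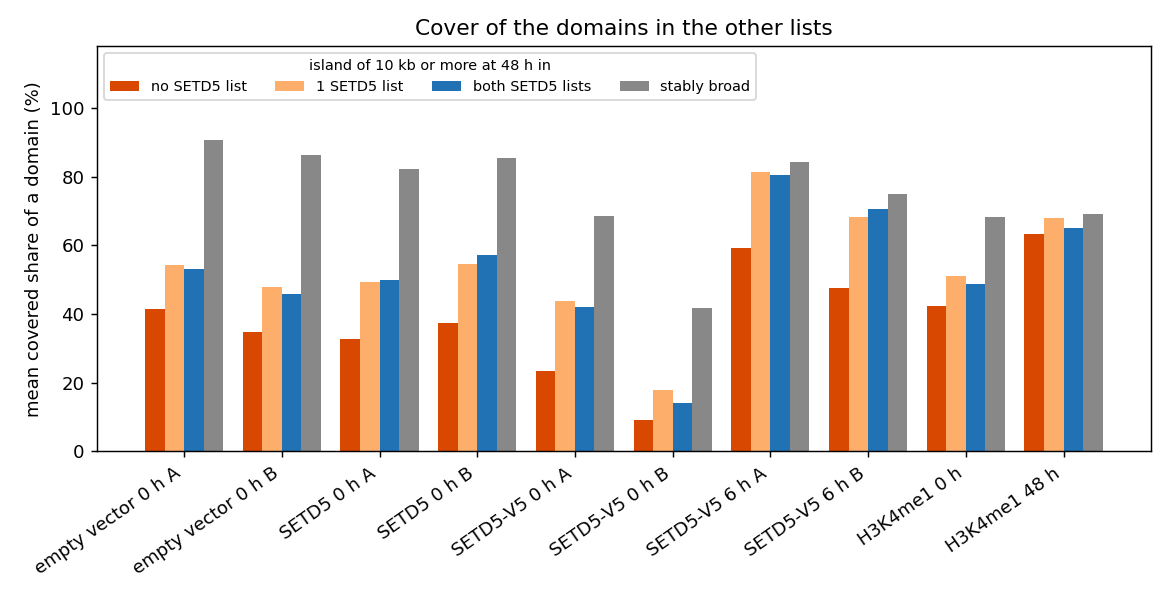
Mean covered share of a domain (%) in the lists that neither chose nor split the newly broad domains, except for the empty-vector 0 h lists used by the rule. Newly broad domains are split by the number of SETD5 48 h lists in which they were broad, and each bar is 1 library. SETD5-V5 cover at 6 h is lowest for domains broad in no SETD5 list.

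H3K4me1, which marks enhancers before and while they are active, was present at most of the domains before differentiation. It overlapped 457 domains (91.8%) at 0 h, against 94.4% of all 954 islands broad in both empty-vector 48 h lists, and its mean covered share was 46.7% at 0 h and 65.0% at 48 h. In the stably broad islands these shares were 68.2% and 69.1%. Cover at 48 h was 63.2% in domains broad in neither SETD5 list and 65.1% in those broad in both.

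Most motifs searched were about as frequent in the gained sequence as in the genome. Of the 16639 windows of 200 bp that were newly covered in both 48 h lists, 8.02% held the C/EBP motif, against 9.35% of all windows of the genome and 8.31% of the windows covered at 0 h. The AP-1 motif TGANTCA was found in 6.18%, 5.93% and 6.77% of these windows, and the glucocorticoid receptor core in 6.68%, 6.56% and 6.33%. Newly covered windows in both SETD5 48 h lists held the C/EBP motif in 8.50%, and those in neither list in 7.34%. For the glucocorticoid receptor core these shares were 7.05% and 6.01%, and for AP-1 6.35% and 5.66%. The PPAR-RXR direct repeat was rare, with 31 newly covered windows (0.186%) against 0.0751% of the genome and 0.0985% of the windows covered at 0 h. Of these 31, 19 lay in both SETD5 lists and 3 in neither, where 59.0% and 23.6% of all newly covered windows lay. Both strands were searched, and GC content differed between these windows, at 46.4%, 41.8% and 48.2%. Repetitive sequence was not masked, so matches inside repeated elements are counted, and their share was not determined.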

How the data were processed

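H3K27ac, H3K4me1, SETD5-V5 and endogenous SETD5 were measured by ChIP-seq in 16 libraries of 3T3-L1 cells. Per the labels, the authors mapped reads to mm9, with Bowtie2 named among their tools, and called islands in each library with SICER. The deposited lists give the position of each island in bp and the authors' score, which was used only to rank islands within a list. All starts fall on a grid of 200 bp. Neighbouring islands lie at least 600 bp apart in the histone lists and 800 bp apart in the SETD5 lists. The lists hold no read counts, so depth behind an island is unknown, and absence means only that a region was not called. By the study's account, both SETD5 48 h libraries had more reads than both empty-vector 48 h libraries.

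Overlap meant 1 bp or more. Groups came from the labels, and exact permutation tests compared libraries. Domains are not replicates. Genes came from GENCODE for NCBIM37. Named domains were the 12 longest, those with start sites of list genes, the 5 with the lowest SETD5 cover among those broad in neither list, the 5 longest broad in both, and those at the limit, with some genes not reported here; groups of neighbours and other genes were named after their values were seen. Members and lists were chosen with earlier results of these data known, and the glucocorticoid receptor motif was added after the members were seen. Python 3.11.15, numpy 2.4.6, scipy 1.17.1, pysam 0.24.0 and matplotlib 3.10.9 were used, and the scripts were tested on simulated data. The alternatives were other length limits, a stricter overlap, score cutoffs, equal list sizes, merged islands, each replicate left out and a replicate block.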

Additional observations from a re-analysis of the deposited data

Results flagged for a closer look

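In 15 of the 498 newly broad domains, cover was higher at 48 h than at 0 h in both letters of empty-vector cells and lower in both letters of SETD5 cells. The same count was not made over all islands broad in both empty-vector 48 h lists. The difference was not tested, and the rule required broad islands at 48 h in empty-vector cells. At Slc27a1, which encodes a fatty acid transporter, cover changed by 20 and 32.7 percentage points in empty-vector cells and by -23.6 and -10.9 in SETD5 cells. At Cebpa it changed by 53.3 and 41.2 points in empty-vector cells and by -1.21 and -10.9 in SETD5 cells. Other domains of this kind lay at Wdr1, Iffo2, Fbln2, Myc and Litaf, among other places. The groups of 2 libraries are too small for a search for outlying samples.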

How the results depend on the processing

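The directions of the differences in broad islands, SETD5 cover over time and SETD5-V5 cover held under every alternative run. However, the difference in broad islands was -10 without replicate A and -602 without replicate B. The difference in cover at 48 h kept its sign too, but the choice of domains favours that sign under every alternative. With the rule on 1 letter it fixes the sign. With a length limit of 8000 bp, or islands within 1000 bp merged, the broad island numbers of the groups overlapped (exact permutation p = 0.667 for both). With a length limit of 15000 bp, 200 newly broad domains were found in empty-vector cells and 147 in SETD5 cells. With the rule on 1 letter, the number ranged from 821 to 973 in empty-vector cells and from 551 to 718 in SETD5 cells, and the share without a broad SETD5 island from 46.7% to 71.7%, the latter without replicate B. Equal list sizes and a median score cutoff changed neither number, since the islands concerned all lie above those cutoffs. With members broad in a SETD5 0 h list left out, an alternative added after seeing the data, the share was 54.0%. With a replicate block, the within-letter differences averaged -306 islands, 31.7 points of SETD5 cover over time and 42.6 of SETD5-V5 cover. Each had p = 0.5 by an exact sign-flip permutation test, the smallest possible. For cover at 48 h the average was -18.7 points, a direction that the choice of domains favours. The shared letters did not pair the libraries, as the correlation of their A minus B differences over 10 kb bins lay between -0.0693 and 0.0635. With 2 libraries per group no test could reach 0.05, and depth per island is unknown.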
